A study of Homo sapiens with 12 samples.

Results

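The response of THP-1 cells to LPS plus ATP was described gene by gene from 6 of the 12 libraries of the series, 3 of untreated cells (NC) and 3 of cells given LPS and ATP with no drug (LPS). THP-1 is an established cell line that was grown out of a human acute monocytic leukaemia, so each group is 1 leukaemic line and not primary monocytes. LPS is a bacterial cell wall component and ATP was added as the trigger of pyroptosis, an inflammatory form of cell death. Doses and times are not stated in the sources used here. No group was given LPS alone or ATP alone, so the effects of these agents cannot be told apart. No genotype difference separates the groups, which share the line, the library method and the 3 batch numbers. The remaining 6 libraries, in which the model was treated with cyclosporin A and eltrombopag (CE) or with these and luspatercept (CEL), entered the statistical fit to estimate the spread between libraries. The text turns to 32 lists of stress genes, receptors, signalling proteins, transporters, enzymes, adhesion proteins, transcription factors and long non-coding RNAs. Interleukin-1 family, chemokine, interferon-induced and NF-kB target genes were given no list of their own, but those that belong to one of the 32, such as SOD2 and TAP1, were kept in it.

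Of 78932 genes in the deposited table, 14065 had enough counts to be tested, from 17737213 to 22622313 counts per NC or LPS library. The level of a gene is given as CPM (counts scaled by library depth, here by the TMM-adjusted library size), in the order of libraries 1, 2 and 3 of each group. A gene is said to rise or fall where edgeR's quasi-likelihood F-test, adjusted by Benjamini and Hochberg over the 14065 genes, gave a p under 0.05. Of all tested genes 22.4% rose and 23.5% fell, 10.2% and 6.26% rose or fell by at least 2-fold, and the median log2 change was -0.01. For 62.5% of tested genes the groups did not overlap, with every LPS library above every NC library (30%) or below it (32.5%). These percentages are the background against which the counts of each list and single genes without overlap are to be read. Upper quartile scaling, which shifts the median of all genes by -0.11, gave 2604 higher and 4387 lower in place of 3152 and 3306. For some lists the lowest and highest medians with 1 library left out are given, and the medians of other lists also moved. NC 3 and LPS 1 stood apart from the other libraries of their groups. Rows of ribosomal and small RNA held 0.459% and 0.350% of their counts and 18.2% and 15.5% of their TPM, against at most 0.00226% of counts and 0.0825% of TPM in the other 4. The counts of the main lists are therefore also given without these 2 libraries, which left 2236 genes higher and 2207 lower. Unless said otherwise, the members named are those with the largest changes among members without overlap whose mean level reaches 3 on the log2 CPM scale (1 for long non-coding RNAs), so members at lower levels can have larger fitted changes. The state markers behaved as the groups are labelled, with SLAMF7 at 0.664, 0.365 and 0.457 CPM in NC and 251, 253 and 238 CPM in LPS. IL1B, CXCL8 and IFI27 also had every LPS library above every NC library. Of the monocytic markers, CD33, CD4 and FCGR1A were present in both groups, LYZ (lysozyme) was present and fell, with 614, 582 and 590.2 CPM in NC and 143, 149 and 134 CPM in LPS, ITGAM and SPI1 were low in NC, and MPO and CEBPA were near 0. Of 13 markers of other cell types 11 were under 2 CPM in all 6 libraries, CD3E, MS4A1, HBA1, EPCAM and KRT18 among them. PECAM1, which monocytes also express, had 232, 209 and 228 CPM in NC and 332, 338 and 311 CPM in LPS, and NCAM1 had 14.5, 15.9 and 16.7 CPM in NC and 5.45, 5.63 and 4.84 CPM in LPS. Nothing in the labels says that the libraries came from separate cultures, so p-values speak of the spread between these libraries alone, which may be technical. In bulk RNA, fewer cells of a kind and less RNA per cell cannot be told apart.

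As background, LPS is recognised by TLR4, whose adaptors switch on NF-kB, AP-1 and, through type I interferon, interferon regulatory factors. A further signal such as extracellular ATP opens the P2X7 channel, lets potassium out of the cell and lets the inflammasome assemble. Macrophages that receive these signals are known to remodel ion transport, lipid mediator receptors, tryptophan and arginine metabolism, adhesion and the actin skeleton, and to leave the immature myeloid programme.

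**Figure D1:**
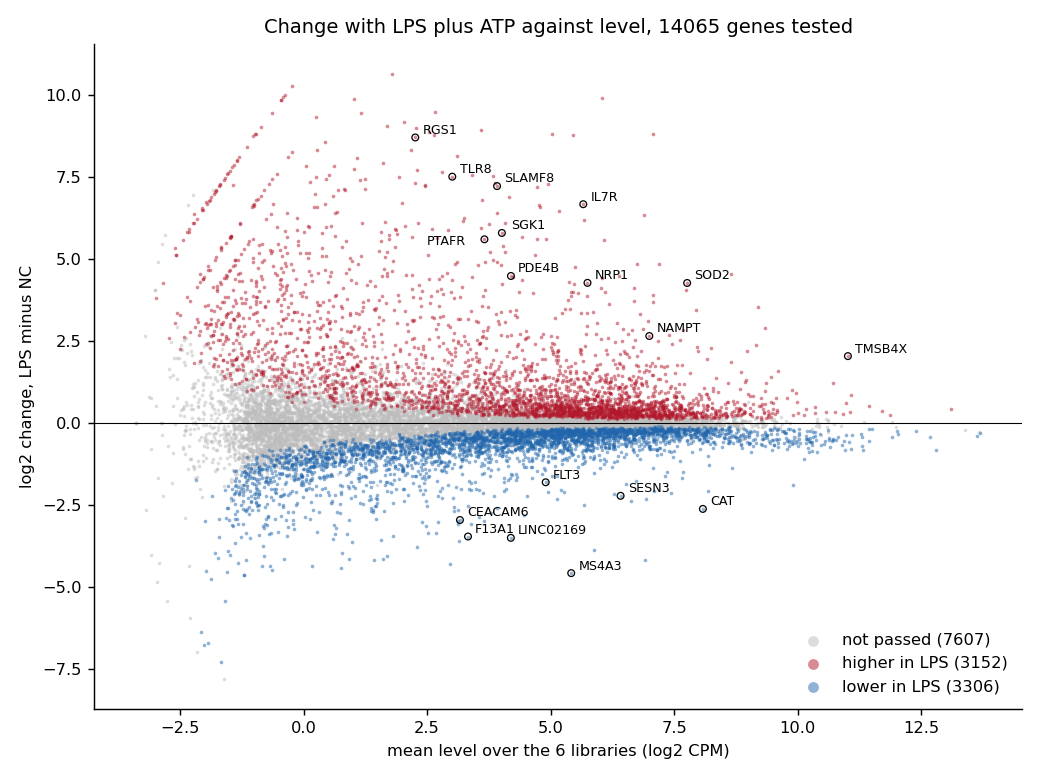
Change against level for the 14065 tested genes. Each point is 1 gene, the horizontal axis is its mean log2 CPM over the 6 NC and LPS libraries and the vertical axis its log2 change, LPS minus NC, with risen genes in red, fallen genes in blue and others in grey. Among the labelled genes rises reached further than falls, with SLAMF8, IL7R and SGK1 above 5 on the log2 scale and the lowest gene, MS4A3, at -4.58.

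Promoters of the genes that changed most were searched for 5 short motifs, shown here because they are the letters that factors of these pathways, of cyclic AMP and of oxidative stress are known to bind. The windows are the 250 bases before each RefSeq start (GRCh38.p14), read on both strands. Such a window was found for 10033 tested genes, for 108 of the named genes that rose and for 98 that fell. A gene with several starts was counted once if any of its windows held the motif. The number of windows per gene was not compared between these sets. An AP-1 motif (TGANTCA) stood before 6.11% of all these genes, 18 of the 108 that rose (16.7%) and 8 of the 98 that fell (8.16%). The NF-kB letters (GGG, any 2 bases, TTTCC) stood before 2.73%, 9 (8.33%) and 1 (1.02%), and those of the interferon-stimulated response element (GAAA, any 2 bases, GAAA) before 3.86%, 12 (11.1%) and 5 (5.1%). The antioxidant response element (TGACNNNGC) stood before 15.8%, 26 (24.1%) and 8 (8.16%), and can overlap AP-1, as it does before ME1 and IL10RA. The cyclic AMP response element (TGACGTCA) stood before 3.46%, 3 (2.78%) and 2 (2.04%). These shares are descriptions without a test, and a match is not evidence of binding. Windows of genes that the results below turn on follow, in the sense of the gene, with the motif in capitals.
SLAMF8, chr1:159826740-159826806, plus strand, AP-1: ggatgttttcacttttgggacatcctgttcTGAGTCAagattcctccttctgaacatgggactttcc
SLAMF8, chr1:159826767-159826836, plus strand, NF-kB: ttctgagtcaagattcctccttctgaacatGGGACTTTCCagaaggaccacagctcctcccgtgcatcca
MIR3142HG, chr5:160468101-160468170, plus strand, NF-kB: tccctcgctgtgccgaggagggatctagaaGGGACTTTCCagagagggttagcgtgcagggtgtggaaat
C3AR1, chr12:8066456-8066522, minus strand, AP-1: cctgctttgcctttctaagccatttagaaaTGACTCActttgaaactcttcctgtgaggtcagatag
PTAFR, chr1:28193871-28193937, minus strand, AP-1: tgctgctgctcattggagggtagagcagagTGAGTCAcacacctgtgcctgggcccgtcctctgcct
HRH1, chr3:11137137-11137203, plus strand, AP-1: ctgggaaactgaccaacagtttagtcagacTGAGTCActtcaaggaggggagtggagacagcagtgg
AMPD3, chr11:10455049-10455115, plus strand, AP-1: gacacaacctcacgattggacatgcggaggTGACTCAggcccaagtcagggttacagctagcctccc
CYBB, chrX:37779809-37779873, plus strand, interferon-stimulated response element: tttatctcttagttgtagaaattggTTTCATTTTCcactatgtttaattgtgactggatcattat
SGK1, chr6:134318293-134318362, minus strand, interferon-stimulated response element: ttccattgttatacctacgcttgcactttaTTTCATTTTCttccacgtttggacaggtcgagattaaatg
PTPRE, chr10:127987062-127987131, plus strand, interferon-stimulated response element: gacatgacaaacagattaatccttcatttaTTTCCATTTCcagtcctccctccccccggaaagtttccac
CREM, chr10:35195822-35195889, plus strand, cyclic AMP response element: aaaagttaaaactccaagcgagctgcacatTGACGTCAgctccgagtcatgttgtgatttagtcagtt
ME1, chr6:83431150-83431218, minus strand, antioxidant response element: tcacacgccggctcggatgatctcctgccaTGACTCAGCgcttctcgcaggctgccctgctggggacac
The AP-1 and NF-kB letters before SLAMF8 start 103 and 76 bases before a RefSeq start, so that both lie in 1 short stretch. The NF-kB letters before MIR3142HG start 120 bases before a RefSeq start. Such a start can lie inside the gene as GENCODE places it. The printed motifs of MIR3142HG, AMPD3, CREM, PTPRE, HRH1, PTAFR and SLAMF8 lie inside the GENCODE bounds of these genes. Those of C3AR1, CYBB, SGK1 and ME1 lie upstream of the GENCODE bounds. Which start the cells used was not tested.

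Rises outnumbered falls among stress-responsive and growth arrest genes. Of 82 tested, 48 rose and 9 fell (38 and 9 without NC 3 and LPS 1), with a median change of 0.59. SGK1, a kinase that regulates ion channels and transporters, stood at 2.53, 1.78 and 2.06 CPM in NC and 122, 123 and 111 CPM in LPS. All 3 LPS libraries lay far above NC, a 55.5-fold rise (5.79 ± 0.11 on the log2 scale, adjusted p = 5.99e-12). SOD2, the mitochondrial superoxide dismutase that makes hydrogen peroxide from superoxide, stood at 46.8, 48.8 and 52.7 CPM in NC and 975, 926 and 958 CPM in LPS, 19.3-fold higher with no overlap. Catalase (CAT), which breaks hydrogen peroxide down, went the other way, with 699, 647 and 674 CPM in NC and 113, 115 and 99.1 CPM in LPS. Every LPS library was below every NC library, a 6.16-fold fall (-2.62 ± 0.08, adjusted p = 2.2e-10). SESN3, a sestrin that restrains the growth kinase complex mTORC1, fell 4.67-fold, from 184 ± 6.63 CPM in NC to 39.4 ± 0.378 CPM in LPS. NDRG1, a stress-induced differentiation gene, rose 4.5-fold, and the translation repressor EIF4EBP1 fell 2.06-fold. The sterol synthesis gene HMGCS1 was the most abundant member that did not pass (0.17 ± 0.07, adjusted p = 0.0769), and its groups overlapped. The antioxidant enzymes of the list therefore did not move together, as SOD2 rose and CAT fell.

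**Figure D2:**
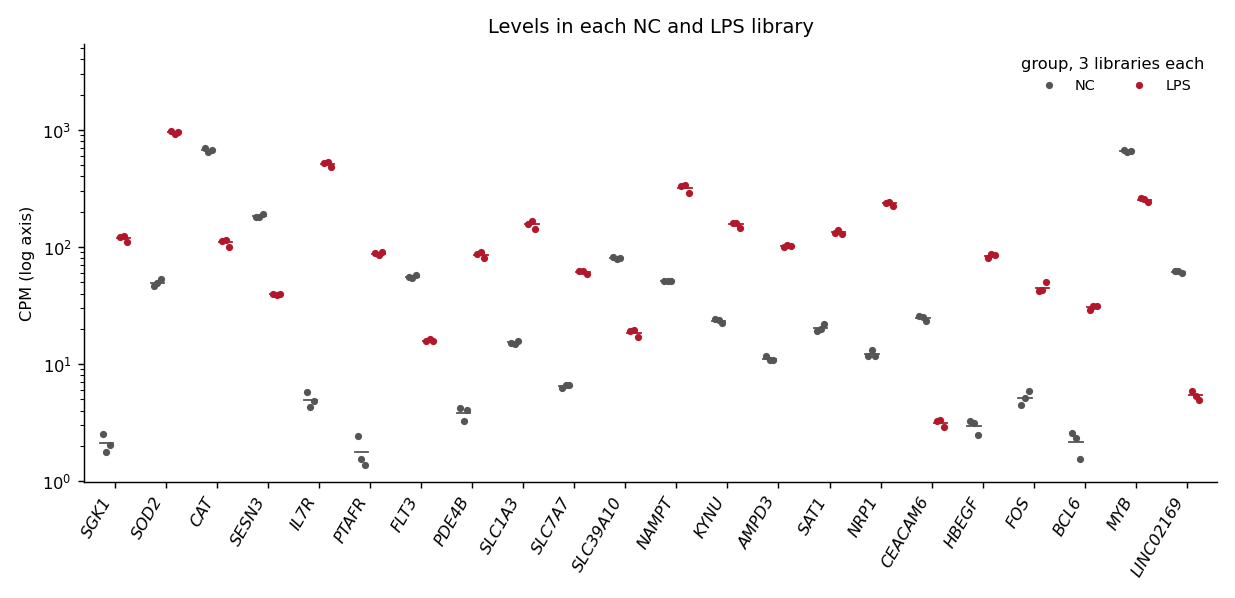
Levels of 22 genes in each library. The vertical axis is CPM on a log scale, grey points are the 3 NC libraries, red points the 3 LPS libraries and bars their means. The genes drawn were named by a rule that required no overlap between groups and took the largest changes, so the clear separation was set by that choice. CAT and SESN3 fell, and SGK1 and SOD2 rose. Of all tested genes 62.5% had no overlap.

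Rises also outnumbered falls among cytokine receptor chains, with 18 of 32 higher, 3 lower (16 and 1 without NC 3 and LPS 1) and a median of 0.77. The 3 that fell were EPOR (named after its values were seen), LEPR and PRLR, and the number lower was 1 without LPS 1 or without LPS 2. PRLR, the prolactin receptor, passed only narrowly (-0.25 ± 0.09, adjusted p = 0.0379) and did not pass in 15 of 18 alternatives (adjusted p 0.00631 to 0.876). IL7R, the interleukin-7 receptor chain best known from lymphocytes, stood at 5.77, 4.29 and 4.85 CPM in NC and 519, 527 and 481 CPM in LPS. It rose 102-fold (6.67 ± 0.12, adjusted p = 3.2e-12), and no NC library came near the LPS values. IL10RA, the ligand-binding chain for the anti-inflammatory cytokine IL-10, stood at 3.36, 4.11 and 2.28 CPM in NC and 43.2, 39 and 60.6 CPM in LPS, 14.5-fold higher, and the partner chain IL10RB, chosen after its values were seen, also rose (0.63 ± 0.05). Both chains of the interferon gamma receptor rose, IFNGR2 5.09-fold from 23 ± 0.55 CPM in NC to 117 ± 5.66 CPM in LPS, and IFNGR1 3.01-fold. The leptin receptor LEPR fell 1.39-fold. IL6R had 99.5, 122 and 122 CPM in NC and 159, 139 and 219 CPM in LPS and did not pass (adjusted p = 0.342), with LPS libraries all above NC but widely spread.

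Among G protein-coupled receptors 31 of 79 rose and 17 fell (26 and 12 without NC 3 and LPS 1), with a median of 0.38. PTAFR, the receptor for platelet-activating factor, whose AP-1 window is printed above, stood at 2.41, 1.55 and 1.37 CPM in NC and 88.7, 84.6 and 89.9 CPM in LPS. It was low in every untreated library and rose 48.5-fold (5.60 ± 0.16, adjusted p = 1.47e-10). GPR183, which guides leukocytes along oxysterols, had 3.53, 4.25 and 4.17 CPM in NC and 90.6, 95.2 and 75 CPM in LPS, 21.9-fold higher with no overlap. The histamine receptor HRH1 and the lysophosphatidic acid receptor LPAR6 rose 9.99-fold and 6.25-fold. GPR84, a receptor for medium-chain fatty acids chosen after its values were seen, had 27 counts over the NC group and 1645 over the LPS group, with a fitted rise of 59.8-fold. On the falling side were the orphan receptor GPR160 (3.65-fold, 176 ± 1.72 CPM in NC and 48.2 ± 3.81 CPM in LPS), the cysteinyl leukotriene receptor CYSLTR1 (2.78-fold) and the Wnt receptor FZD3 (1.95-fold). FZD6, the most abundant receptor that did not pass, stood at 84.1 ± 0.443 CPM in NC and 74.4 ± 5.4 CPM in LPS.

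Receptor tyrosine kinases were few, and 8 of 20 rose while 7 fell (8 and 7 without NC 3 and LPS 1). CSF1R, the receptor for the macrophage growth factor M-CSF, stood at 6.4, 7.63 and 7.76 CPM in NC and 43.2, 35.7 and 60.7 CPM in LPS, 6.42-fold higher, and the LPS libraries differed among themselves. FLT3, a receptor of early haematopoietic progenitors, fell 3.51-fold, with 55, 54.6 and 57.6 CPM in NC and 15.6, 16.4 and 15.7 CPM in LPS. RET, the receptor for glial-derived growth factors, fell 2.64-fold. The hepatocyte growth factor receptor MET, chosen after its values were seen, had 7 counts over the NC group and 1027 over the LPS group. The macrophage receptor CSF1R and the progenitor receptor FLT3 thus moved in opposite directions.

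Lectins, siglecs and other glycan-binding receptors had 15 of 31 higher and 7 lower (14 and 6 without NC 3 and LPS 1), and the second highest median of the 32 lists, 0.94. CLEC5A, a myeloid activating lectin, rose 29.9-fold, with 1.41, 1.6 and 1.6 CPM in NC and 45.9, 48.3 and 43.6 CPM in LPS. The galectins LGALS3, LGALS9 and LGALS1 rose 2.61-fold, 2.38-fold and 2.11-fold. LGALS8 stood at 164 ± 5.73 CPM in NC and 169.7 ± 13.5 CPM in LPS and did not pass. The beta-glucan receptor CLEC7A, chosen after its values were seen, had 21 counts over NC and 1514 over LPS, and its fitted change was 6.12, or 6.70 without NC 3.

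**Figure D3:**
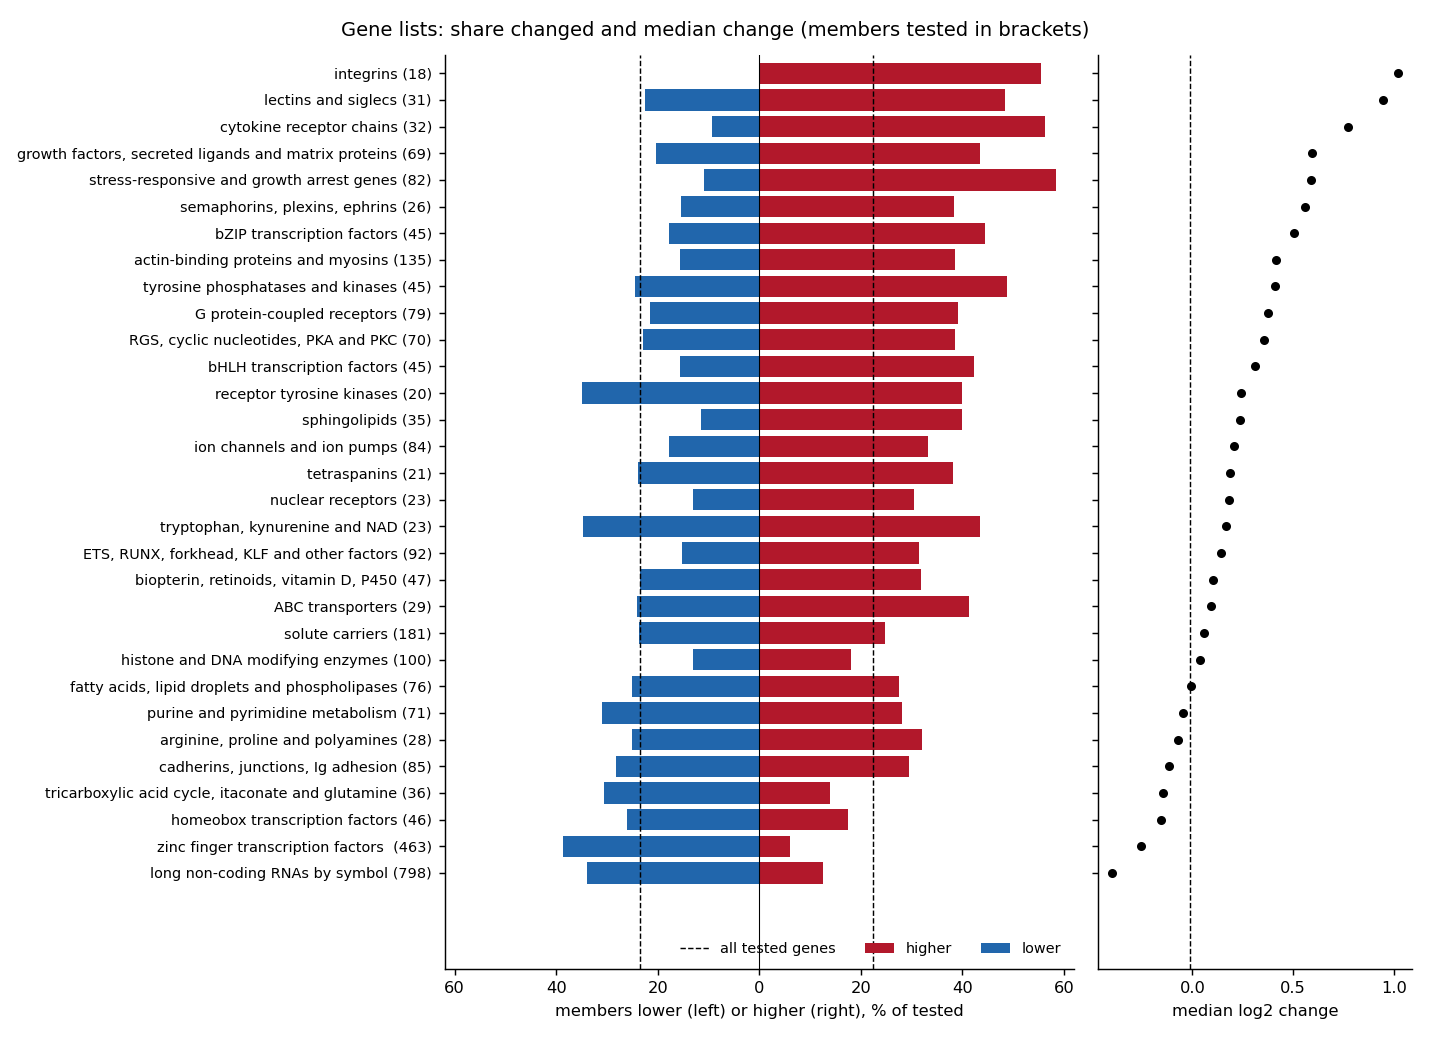
Share of changed members and median change in 31 of the 32 lists. In the left panel red bars to the right are the percent of tested members that rose, blue bars to the left the percent that fell, and dashed lines the same over all tested genes, and the right panel gives the median log2 change. Integrins have the highest median and no lower member, and zinc finger genes and long non-coding RNAs stand at the bottom, with more members lower than higher.

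Signalling proteins downstream of these receptors were measured next. RGS proteins shorten G protein signals, phosphodiesterases break down cyclic AMP, and protein kinases A and C respond to cyclic AMP and diacylglycerol. In this list 27 of 70 rose and 16 fell (19 and 14 without NC 3 and LPS 1, median 0.36). PDE4B, the cyclic AMP phosphodiesterase best known as induced by LPS in monocytes, stood at 4.24, 3.24 and 4.05 CPM in NC and 87.8, 90.1 and 80.0 CPM in LPS. The rise was 22.3-fold (4.48 ± 0.11, adjusted p = 4.96e-11), with every LPS library above every NC library. PDE4D rose 2.47-fold and RGS2 5.08-fold, while RGS18, an RGS protein of haematopoietic cells, fell 2.51-fold from 54 ± 3.27 CPM in NC to 21.5 ± 2.24 CPM in LPS. RGS1, chosen after its values were seen, had 12 counts over NC and 5198 over LPS. The diacylglycerol kinase DGKG fell 4.07-fold and the protein kinase A catalytic subunit PRKACB 1.78-fold. Of 8 protein kinase C genes 4 rose and 4 fell, and none of 4 adenylyl cyclases passed. The regulatory subunit PRKAR1A was the most abundant member that did not pass, with 356 ± 9.44 CPM in NC and 396 ± 34.8 CPM in LPS.

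Protein tyrosine phosphatases and non-receptor tyrosine kinases had 22 of 45 higher and 11 lower (18 and 7 without NC 3 and LPS 1), with a median of 0.41. Of the phosphatases 13 of 24 rose and 6 fell, and of the non-receptor tyrosine kinases 9 of 21 rose and 5 fell. The receptor-type phosphatase PTPRE stood at 22.6, 19.6 and 21.3 CPM in NC and 181, 179.5 and 169 CPM in LPS, 8.32-fold higher (3.06 ± 0.05, adjusted p = 3.2e-12). The Src family kinase LYN, which transmits signals from immune receptors, rose 5.33-fold, with 72.3, 78.9 and 76.9 CPM in NC and 403, 404 and 408 CPM in LPS. Neither gene's groups overlapped. PTPN6 (SHP-1), which acts at inhibitory receptors, rose 3.02-fold and PTPRJ 3.09-fold. PTPN22, another phosphatase that limits Src family signalling, fell 2.22-fold, and the kinase TEC fell 2.19-fold.

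Solute carriers, the largest transporter family, moved in both directions. Of 181 tested, 45 rose and 43 fell (33 and 30 without NC 3 and LPS 1), and upper quartile scaling gave 36 and 53. The median was 0.06, or -0.05 with that scaling, and ran from 0.01 without NC 3 to 0.08 without LPS 1. SLC1A3, a glutamate transporter best known from astrocytes, stood at 15.2, 15 and 15.8 CPM in NC and 158, 168 and 141 CPM in LPS, a 10.2-fold rise (3.35 ± 0.10, adjusted p = 1.47e-10). SLC7A7, the light chain of the exchanger that carries arginine and other cationic amino acids, stood at 6.27, 6.67 and 6.56 CPM in NC and 62.5, 62 and 58.5 CPM in LPS, 9.37-fold higher. SLC8A1, the sodium and calcium exchanger, rose 5.86-fold from 9.17 ± 0.782 CPM in NC to 53.7 ± 1.59 CPM in LPS. The zinc importer SLC39A10 stood at 81.9, 78.9 and 80.6 CPM in NC and 19.1, 19.4 and 17 CPM in LPS, 4.35-fold lower with no overlap. Of 10 zinc importers of the SLC39 family 2 rose and 4 fell, or 2 and 2 without NC 3 and LPS 1. The carrier SLC22A15 fell 2.08-fold, SLC27A2, a fatty acid transporter and acyl-CoA synthetase, 2-fold, and the choline transporter SLC44A1 1.72-fold. In the mitochondrial family SLC25, 6 of 34 rose and 5 fell, with 4 and 3 without NC 3 and LPS 1 and 4 and 9 with upper quartile scaling. SLC38A2, the neutral amino acid carrier with the highest level among those that did not pass, stood at 397 ± 22.3 CPM in NC and 447 ± 37.5 CPM in LPS.

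ABC transporters, which use ATP to move lipids, peptides and drugs, had 12 of 29 higher and 7 lower (10 and 5 without NC 3 and LPS 1), with a median of 0.09. It became -0.01 with upper quartile scaling and ran from -0.07 without LPS 3 to 0.18 without LPS 2. ABCB4, a phospholipid floppase best known from liver, rose 6-fold, with 5.02, 4.89 and 5.82 CPM in NC and 31.7, 31.7 and 30.8 CPM in LPS. TAP1 and TAP2, which carry peptides to MHC class I molecules, rose 7.59-fold and 2.12-fold, and TAP1 stood at 4.69, 5.34 and 4.45 CPM in NC and 33, 27.4 and 49.9 CPM in LPS, highest in LPS 3. ABCC5 and ABCD3, an exporter of nucleotides and a carrier of peroxisomal fatty acids, fell 1.68-fold and 1.44-fold. The cholesterol exporter ABCA1 did not pass (0.18 ± 0.07, adjusted p = 0.0623). ABCA6, chosen after its values were seen, had 27 counts over NC and 1631 over LPS.

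Ion channels and pumps had 28 of 84 higher and 15 lower (23 and 12 without NC 3 and LPS 1, median 0.20, or 0.10 with upper quartile scaling). Calcium-handling genes were found at both ends. ATP2B1, the plasma membrane calcium pump, stood at 54.3, 51 and 54.1 CPM in NC and 248, 251 and 228 CPM in LPS, 4.56-fold higher, while its relative ATP2B4 fell 1.74-fold, from 184 ± 8.04 CPM in NC to 106 ± 5.05 CPM in LPS. The lysosomal cation channel MCOLN2 rose 3.99-fold, with 47.8, 46.3 and 49.2 CPM in NC and 195, 189.7 and 187 CPM in LPS. Of the subunits of voltage-gated calcium channels, CACNA2D4 rose 3.81-fold, whereas CACNA2D3 and CACNB4 fell 6.43-fold and 4.69-fold. CACNA2D3 stood at 21.8, 19.6 and 21 CPM in NC and 3.29, 3.88 and 2.53 CPM in LPS, and its groups did not overlap. Among potassium channels 6 of 17 rose and 4 fell. KCNQ5 fell 3.34-fold, and the inward rectifier KCNJ2, chosen after its values were seen, had 28 counts over NC and 1071 over LPS. The chloride channel protein CLIC1, the most abundant member, did not pass (707 ± 30.1 CPM in NC and 773 ± 9.76 CPM in LPS).

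Tryptophan is broken down along the kynurenine route, which feeds the synthesis of NAD, and NAD is also regained from nicotinamide. In the list of these enzymes 10 of 23 rose and 8 fell (9 and 7 without NC 3 and LPS 1), with a median of 0.17. Leaving out 1 library moved this median from -0.02 without NC 1 to 0.37 without NC 2, so its sign is not fixed. TDO2 and IDO1, which open the tryptophan ring in the first step and were chosen after their values were seen, rose. They had 13 and 4 counts over NC and 4304 and 820 over LPS. KMO, which oxidises kynurenine, rose 2.51-fold. KYNU, which cleaves kynurenines, stood at 24.4, 23.6 and 22.6 CPM in NC and 160.4, 162 and 145 CPM in LPS, 6.61-fold higher (2.72 ± 0.06, adjusted p = 2.19e-11). NAMPT, the rate-limiting enzyme that regains NAD from nicotinamide, stood at 50.8, 50.8 and 51.4 CPM in NC and 333, 341 and 287 CPM in LPS, 6.28-fold higher, and the NAD kinase NADK rose 4.15-fold. On the other side the mitochondrial transhydrogenase NNT fell 1.35-fold, from 504 ± 22 CPM in NC to 373 ± 21.8 CPM in LPS, and AFMID, the formamidase that follows the ring opening, fell 1.44-fold.

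The list of tricarboxylic acid cycle, itaconate and glutamine genes held 5 higher and 11 lower of 36 tested. Its median was -0.15, or -0.26 with upper quartile scaling. The numbers were 2 and 7 without NC 3 and LPS 1, and those higher were 2 without NC 3 and 3 without LPS 2. Upper quartile scaling gave 2 higher and 20 lower. ME1, the cytosolic malic enzyme that makes NADPH, rose 2.85-fold, with 19.5, 22.7 and 22.4 CPM in NC and 60.7, 60.4 and 63.4 CPM in LPS. Glutamine synthetase (GLUL), which makes glutamine from glutamate, fell 2.41-fold, with 477, 444 and 458 CPM in NC and 196, 193 and 183 CPM in LPS. No library of ME1 or GLUL crossed into the range of the other group. The cytosolic isocitrate dehydrogenase IDH1 fell 1.73-fold and SDHA, a subunit of succinate dehydrogenase, 1.22-fold. DLD, a shared subunit of mitochondrial dehydrogenases, stood at 263 ± 6.19 CPM in NC and 233 ± 15.2 CPM in LPS and did not pass.

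Of purine and pyrimidine enzymes 20 of 71 rose and 22 fell (14 and 14 without NC 3 and LPS 1), with a median of -0.05 that ran from -0.08 without NC 2 to -0.02 without LPS 3. The counts were 16 and 30 with upper quartile scaling (median -0.16). Enzymes that degrade nucleotides were among the rises. AMPD3, which deaminates AMP, stood at 11.7, 10.8 and 10.8 CPM in NC and 101, 104 and 102 CPM in LPS, 9.2-fold higher (3.20 ± 0.08, adjusted p = 6.28e-11). NT5E (CD73), which makes adenosine from AMP outside the cell, rose 5.24-fold, and DPYD, which degrades uracil and thymine, 4.11-fold from 53.1 ± 1.18 CPM in NC to 218 ± 9.16 CPM in LPS. CMPK2, a mitochondrial nucleotide kinase known as interferon-induced, rose 28-fold. IMPDH2, which commits IMP to guanine nucleotides, fell 2.03-fold, with 429.8, 403 and 415 CPM in NC and 204, 212 and 199 CPM in LPS. The mitochondrial adenylate kinases AK3 and AK4 fell 2.23-fold and 1.85-fold. SAMHD1, which hydrolyses deoxynucleotides, did not pass (399.7 ± 23.1 CPM in NC and 504 ± 74.6 CPM in LPS).

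Arginine, proline and polyamine genes had 9 of 28 higher and 7 lower (7 and 7 without NC 3 and LPS 1, median -0.07). The median ran from -0.12 without LPS 2 to -0.07 without LPS 3 and was -0.19 with upper quartile scaling, which gave 9 and 10. SAT1, which acetylates spermidine and spermine for export or breakdown, stood at 19.3, 19.8 and 21.8 CPM in NC and 132, 141 and 129 CPM in LPS, 6.6-fold higher. AZIN1, which blocks the antizymes that degrade ornithine decarboxylase, rose 1.58-fold, and the antizyme OAZ1 fell 1.44-fold, from 653 ± 12.1 CPM in NC to 453 ± 4.87 CPM in LPS. The prolyl hydroxylase subunits P4HA1 and P4HA2 rose 1.87-fold and 1.75-fold. ASS1, which makes argininosuccinate on the way from citrulline to arginine, stood at 127, 117 and 118 CPM in NC and 46.5, 48 and 47 CPM in LPS, 2.56-fold lower with no overlap.

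Fatty acid and phospholipid genes had 21 of 76 higher and 19 lower (21 and 14 without NC 3 and LPS 1), near the background, or 21 and 25 with upper quartile scaling. Their median was close to 0 and ran from -0.05 without NC 3 to 0.04 without NC 1. Some genes of fatty acid uptake and activation were among the rises, while SLC27A2, described with the solute carriers, fell 2-fold. ACSL1, which couples long-chain fatty acids to coenzyme A, stood at 45.1, 46.3 and 43.8 CPM in NC and 202, 199 and 184 CPM in LPS, 4.33-fold higher. ACSL4, which prefers arachidonic acid, and the fatty acid receptor CD36 rose 2.61-fold and 3.21-fold. Genes of mitochondrial oxidation were among the falls, with the acyl-CoA dehydrogenase ACADM 1.76-fold lower, at 192, 178 and 196 CPM in NC and 116, 107 and 98.9 CPM in LPS, and the trifunctional protein subunit HADHB 1.55-fold lower. Sphingolipid genes had 14 of 35 higher and 4 lower (8 and 3 without NC 3 and LPS 1, median 0.24, or 0.12 with upper quartile scaling). The number lower was 2 without NC 1, NC 2, LPS 2 or LPS 3. SMPDL3A, a relative of acid sphingomyelinase, rose 4.01-fold, the glucosylceramide synthase UGCG 2.91-fold and the sphingomyelin synthase SGMS2 2.6-fold.

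In the list of tetrahydrobiopterin, retinoid, vitamin D and cytochrome P450 genes 15 of 47 rose and 11 fell (13 and 9 without NC 3 and LPS 1). Its median of 0.10 became -0.01 with upper quartile scaling and ran from 0.03 without NC 3 to 0.14 without NC 2. GCH1, the first enzyme of tetrahydrobiopterin synthesis, stood at 4.15, 5.16 and 5.42 CPM in NC and 34.3, 37.5 and 32 CPM in LPS, 7.06-fold higher (2.82 ± 0.10, adjusted p = 1.22e-09). CYP1B1, a P450 that oxidises steroids and hydrocarbons, rose 6.16-fold, and the aromatase gene CYP19A1, chosen after its values were seen, had 32 counts over NC and 1197 over LPS. AKR1C2, whose reads can also match close paralogs, rose 3.31-fold. The mitochondrial aldehyde dehydrogenase ALDH2 fell 1.6-fold.

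Integrins, the paired alpha and beta chains by which leukocytes attach to other cells and matrix, had the highest median of the 32 lists, 1.02. With 1 library left out this median ran from 0.69 without LPS 3 to 1.21 without LPS 1. Lectins ranked above integrins without NC 3, without LPS 3 and, by little (1.017 against 1.015), without NC 3 and LPS 1 together. Cytokine receptor chains also ranked above integrins without LPS 3. On the TPM and FPKM scales other lists had the highest median. Of 18 chains tested 10 rose and 0 fell, with 9 and 0 without NC 3 and LPS 1. 1 chain was lower without LPS 2, with library size alone, with upper quartile scaling and in a fit of the 6 libraries. ITGB2, the beta chain of the leukocyte integrins, stood at 24.5, 32.7 and 25.3 CPM in NC and 141, 115 and 233 CPM in LPS. It rose 5.93-fold with a wide error (2.57 ± 0.66, adjusted p = 0.00783), since LPS 3 lay well above LPS 1 and LPS 2. Its partners ITGAM (CD11b) and ITGAX (CD11c), named after their values were seen, rose too, and ITGAM stood at 1.74, 1.78 and 0.913 CPM in NC and 12.2, 8.42 and 16 CPM in LPS, also highest in LPS 3. ITGB1, the beta chain of many matrix receptors, stood at 364, 332 and 360.3 CPM in NC and 557, 568 and 511 CPM in LPS, 1.55-fold higher, and ITGAV, the vitronectin receptor chain, rose 1.57-fold. ITGB8 and ITGA1, also chosen in this way, had 1 and 2 counts over NC and 382 and 553 over LPS. ITGA4, the alpha chain of VLA-4, had 362 ± 5.35 CPM in NC and 328 ± 20.4 CPM in LPS and did not pass (adjusted p = 0.0508).

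**Figure D4:**
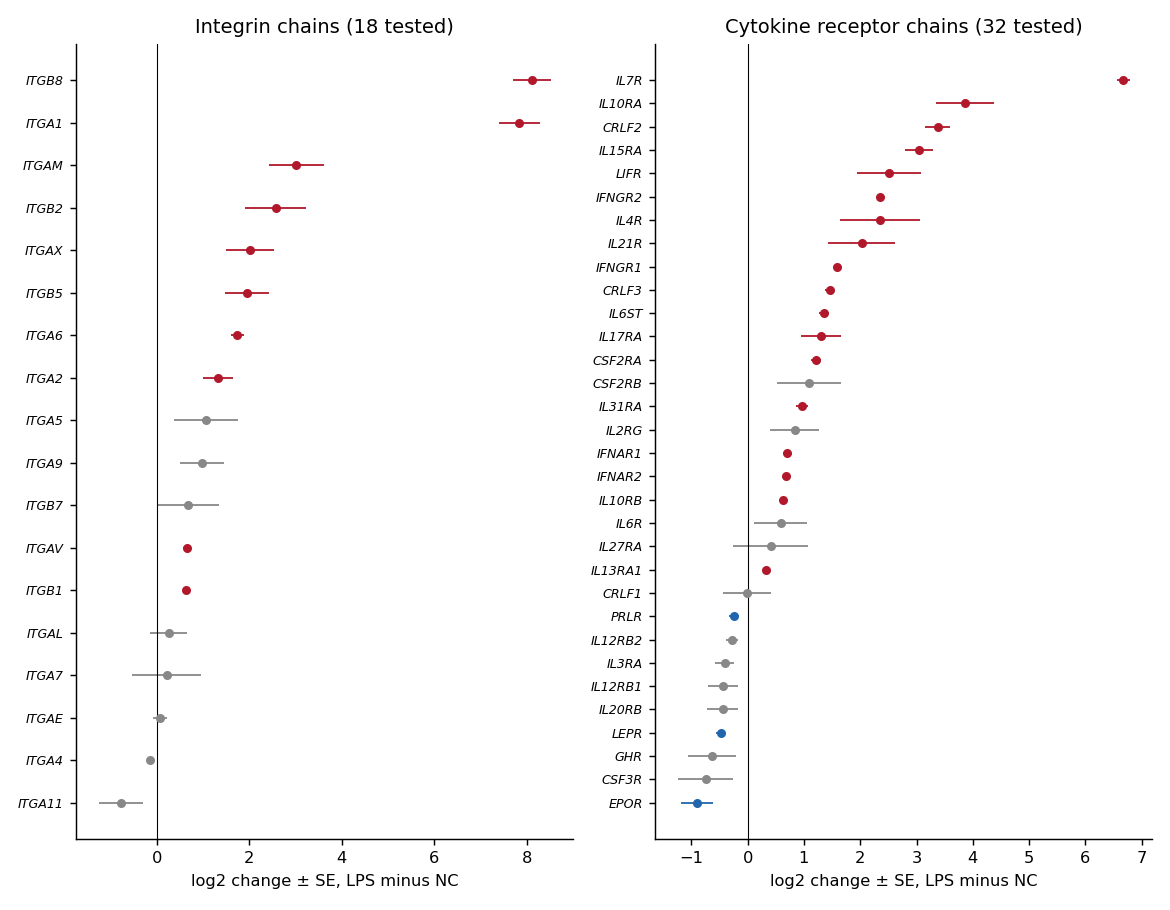
Log2 change of the 18 tested integrin chains and the 32 tested cytokine receptor chains. Points are the fitted change, LPS minus NC, with bars of 1 standard error, in red where the gene rose, blue where it fell and grey where it did not pass. Most chains lie right of 0, IL7R stands apart among receptors, and ITGB8 and ITGA1, with 1 and 2 counts over the NC group, have fitted values that depend on the prior count.

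Other adhesion genes were mixed. Cadherins, junction proteins and immunoglobulin-like molecules had 25 of 85 higher and 24 lower (22 and 19 without NC 3 and LPS 1, median -0.12). That median ran from -0.14 without LPS 3 to 0.01 without NC 2, so its sign is not fixed, and upper quartile scaling gave 23 higher and 31 lower. CD44, the hyaluronan receptor, stood at 108, 112 and 108 CPM in NC and 386, 367 and 368 CPM in LPS, 3.41-fold higher. The catenins CTNND1 and CTNNA1, which link cadherins to the skeleton, rose 6.17-fold and 1.38-fold. CEACAM6, a granulocyte adhesion molecule, stood at 25.5, 25.3 and 23.2 CPM in NC and 3.24, 3.36 and 2.89 CPM in LPS, 7.79-fold lower with no overlap, and the neural adhesion molecule NCAM1 fell 2.96-fold. Among tetraspanins, which organise receptors in the membrane, 8 of 21 rose and 5 fell (5 and 4 without NC 3 and LPS 1). The number higher was also 5 without NC 3 alone or LPS 2 alone, and upper quartile scaling gave 5 and 7. CD82 and CD53 rose 8.9-fold and 5.48-fold, and CD53 stood at 34.9, 32.1 and 33.6 CPM in NC and 181, 191 and 179 CPM in LPS. TSPAN5 and CD37, a tetraspanin of B cells and myeloid cells, fell 2-fold and 1.7-fold.

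Semaphorins, plexins, neuropilins, ephrins and related guidance molecules had 10 of 26 higher and 4 lower (9 and 4 without NC 3 and LPS 1, median 0.56). With 1 library left out that median ran from 0.39 without LPS 3 to 0.68 without LPS 1. NRP1, a co-receptor for semaphorins and for vascular endothelial growth factor, stood at 11.8, 13.1 and 11.6 CPM in NC and 239.5, 241 and 225 CPM in LPS. The groups lay far apart, a 19.3-fold rise (4.27 ± 0.07, adjusted p = 1.38e-12). The Slit receptor ROBO1 rose 2.18-fold and PLXDC2, a plexin-like membrane protein, 2.03-fold.

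Actin-binding proteins and myosins had 52 of 135 higher and 21 lower (36 and 16 without NC 3 and LPS 1, median 0.42). TMSB4X, the thymosin that binds actin monomers and whose reads can also match its pseudogenes, stood at 1055, 999.7 and 1013 CPM in NC and 4235, 4416 and 3944 CPM in LPS, 4.1-fold higher. The tropomyosin TPM4 stood at 212, 203 and 216 CPM in NC and 775, 784 and 749.8 CPM in LPS, 3.66-fold higher with a small error (1.87 ± 0.04). The long-tailed myosin MYO1E rose 2.7-fold. CORO2A, a coronin, stood at 39.2, 37.7 and 34.4 CPM in NC and 5.89, 5.54 and 6.79 CPM in LPS, 6.1-fold lower, and the adducin ADD3 and the LIM protein PDLIM1 fell 3.06-fold and 2.57-fold. The cytoplasmic actin ACTG1 did not pass (1279 ± 50.0 CPM in NC and 1401 ± 59 CPM in LPS).

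Growth factors, secreted ligands and matrix proteins had 30 of 69 higher and 14 lower (24 and 11 without NC 3 and LPS 1, median 0.60). With 1 library left out that median ran from 0.46 without LPS 3 to 0.72 without NC 1. HBEGF, a ligand of the epidermal growth factor receptor, stood at 3.24, 3.15 and 2.45 CPM in NC and 79.8, 87.5 and 84.7 CPM in LPS, 28.3-fold higher (4.82 ± 0.10, adjusted p = 8.81e-12). PTX3, a soluble pattern recognition protein, rose 11.5-fold, with 3.7, 4.38 and 3.6 CPM in NC and 44.7, 46.6 and 43.2 CPM in LPS. The proteoglycan VCAN rose 4.69-fold. IGFBP3, which binds insulin-like growth factors, and ENPP2 (autotaxin), which makes lysophosphatidic acid, were chosen after their values were seen. They had 6 and 28 counts over NC and 1723 and 5839 over LPS. Genes for contents of myeloid granules were among the falls, with the ribonuclease RNASE2, whose reads can also match its pseudogene, 4.24-fold lower, azurocidin (AZU1) 3.18-fold lower and the granule proteoglycan SRGN 2.15-fold lower. SRGN was abundant in every library, with 1712, 1587 and 1636 CPM in NC and 806, 814 and 672 CPM in LPS.

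Transcription factors of the bZIP family, which includes AP-1, had 20 of 45 higher and 8 lower (14 and 6 without NC 3 and LPS 1, median 0.50). The number lower was 5 without LPS 1 or without NC 2. FOS, a subunit of AP-1, stood at 4.49, 5.11 and 5.94 CPM in NC and 42, 42.8 and 50.0 CPM in LPS, 8.7-fold higher. CREM, which answers cyclic AMP, rose 3.48-fold, with 7.39, 7.44 and 7.31 CPM in NC and 25.4, 29.1 and 22.6 CPM in LPS, and NFIL3, a repressor of immune and circadian genes, 3.1-fold. Neither CREM nor FOS had overlapping groups. The stress factor ATF4 and its partner CEBPG fell by little, 1.2-fold and 1.25-fold.

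Among genes listed as bHLH factors 19 of 45 rose and 7 fell (17 and 4 without NC 3 and LPS 1, median 0.31). The median ran from 0.11 without LPS 3 to 0.39 without LPS 2 and was 0.20 with upper quartile scaling. MXD1, which opposes MYC by binding its partner MAX, rose 3.94-fold, with 8.72, 9.41 and 10.1 CPM in NC and 38.6, 37.4 and 35.3 CPM in LPS, and its relative MXI1 fell 1.88-fold. MITF, a factor of pigment cells, osteoclasts and macrophages, rose 3.83-fold. NCOA7 and NCOA4 entered the list by their symbols and are not bHLH factors. NCOA7, a protein of the oxidation resistance family, rose 14.9-fold, with 34.8, 34.7 and 35.7 CPM in NC and 552, 563 and 449 CPM in LPS, and NCOA4, the receptor that delivers ferritin for breakdown, fell 1.51-fold.

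In the list of ETS, RUNX, GATA, forkhead, KLF and similar factors 29 of 92 rose and 14 fell (17 and 10 without NC 3 and LPS 1, median 0.14). Under upper quartile scaling 21 rose and 21 fell, with a median of 0.03. BCL6, a repressor that limits inflammatory genes in macrophages, stood at 2.57, 2.33 and 1.54 CPM in NC and 28.9, 31.3 and 31.5 CPM in LPS, 14-fold higher. The ETS factors ETV5 and ETV6 rose 5.37-fold and 2.41-fold, and KLF6 rose 2.89-fold. MYB, which maintains proliferating myeloid progenitors, stood at 677, 642 and 660.3 CPM in NC and 261, 257 and 242 CPM in LPS, 2.6-fold lower (-1.38 ± 0.05, adjusted p = 1.63e-09). The LPS libraries held less MYB than any NC library. ELF1, an abundant ETS factor, did not pass (385 ± 13.9 CPM in NC and 382 ± 26.1 CPM in LPS).

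Homeobox factors had 8 of 46 higher and 12 lower (4 and 7 without NC 3 and LPS 1, median -0.15). The median ran from -0.26 without NC 3 to -0.14 without LPS 2, and upper quartile scaling gave 4 and 17. The number higher was 4 without NC 3 alone and 5 without LPS 2 alone. HESX1, a pituitary repressor in development, rose 6.67-fold, with 2.87, 3.24 and 3.37 CPM in NC and 22.9, 21.1 and 19.2 CPM in LPS. SATB1, a chromatin organiser of lymphocytes and progenitors, fell 2.04-fold, with 253, 263 and 250.3 CPM in NC and 126, 126 and 123 CPM in LPS, and HOXA10, a progenitor homeobox gene, fell 1.41-fold. Nuclear receptors had 7 of 23 higher and 3 lower (4 and 2 without NC 3 and LPS 1, median 0.18). The median ran from 0.06 without LPS 3 to 0.23 without LPS 1 and was 0.08 with upper quartile scaling. The glucocorticoid receptor NR3C1 rose 1.4-fold, from 122 ± 2.69 CPM in NC to 171 ± 12.9 CPM in LPS, and the fatty acid sensor PPARA fell 1.38-fold.

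Zinc finger genes named ZNF, ZFP, ZSCAN, ZKSCAN or ZBTB were a large family of factors in which falls far outnumbered rises. Most encode C2H2 proteins, and many carry a KRAB domain and silence transposable elements. Of 463 tested, 28 rose (6.05%) and 179 fell (38.7%), beside 22.4% and 23.5% of all genes, and the median was -0.25. Without NC 3 and LPS 1 the counts were 15 and 123. DESeq2 gave 22 and 152, upper quartile scaling 18 and 231, and limma on log2(TPM + 1) 12 and 27, so the number depends on the scale. Falls were more numerous than rises in each. On log2(TPM + 1), however, 2070 of all 14065 tested genes were higher and 893 lower. The share of zinc finger genes that fell was thus not above that of all genes on this scale, while the share that rose was smaller. By at least 2-fold, 6 rose and 18 fell. ZNF670 stood at 80.2, 76.9 and 77.5 CPM in NC and 35.7, 33.8 and 31.3 CPM in LPS, 2.33-fold lower, ZNF493 fell 2.54-fold and ZNF33B, whose reads can also match its close relative, 2.25-fold. The exceptions included ZBTB43 and ZNF267, which rose 1.87-fold and 1.78-fold, and ZNF207, the most abundant member that did not pass (436 ± 8.5 CPM in NC and 412 ± 20.4 CPM in LPS). Many of these genes lie in clusters on chromosome 19, where 7 of 200 rose and 86 fell (3 and 59 without NC 3 and LPS 1, median -0.33). Elsewhere 21 of 263 rose and 93 fell (12 and 64, median -0.17), while the 575 tested genes of chromosome 19 outside the list had 80 higher, 101 lower and a median of 0.06. The difference between these sets was not tested.

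Enzymes that modify histones and DNA were tested next. Of 100 tested, 18 rose and 13 fell, below the background in both directions, or 10 and 8 without NC 3 and LPS 1. The number higher was also 10 without NC 3 alone, and the median of 0.04 ran from 0.01 without NC 3 to 0.06 without NC 1. With upper quartile scaling 13 rose, 22 fell and the median was -0.07. The coactivator NCOA3 rose 2.32-fold and JMJD6 2-fold, while the histone demethylases KDM5B and KDM4A fell 2.01-fold and 1.58-fold. Among the 15 tested demethylases with KDM symbols, however, 4 rose and 2 fell, or 3 and 2 without NC 3 and LPS 1. KDM5B, which removes methyl groups from lysine 4 of histone H3, stood at 116, 117 and 117 CPM in NC and 59, 56.1 and 59.3 CPM in LPS. Of 8 histone deacetylases 0 rose and 4 fell, or 0 and 2 without NC 3 and LPS 1.

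Long non-coding RNAs, taken by symbol, also had more falls than rises. Of 798 tested, 100 rose (12.5%) and 271 fell (34%), and the median of -0.40 was the lowest of the 32 lists. Without NC 3 and LPS 1 the counts were 79 and 154. The list by GENCODE 29 class, which also holds genes named by identifier, gave 184 higher and 388 lower of 1375, beside 2807 and 2660 of 11374 protein-coding genes. The strand setting of the counting is not known from the sources used here, so antisense and divergent RNAs cannot be told apart from the genes they overlap. ITGB2-AS1, for example, stood at 0.415, 0.502 and 0.685 CPM in NC and 8.3, 8.42 and 12.7 CPM in LPS, highest in LPS 3 as ITGB2 was. MIR3142HG, the host transcript of microRNA 146a, stood at 1.37, 1.74 and 1.71 CPM in NC and 21.8, 20.8 and 18.4 CPM in LPS, 12.7-fold higher (3.66 ± 0.11, adjusted p = 2.81e-10). MIR222HG, the host of microRNAs 221 and 222, rose 5.79-fold, and MIR155HG, chosen after its values were seen, 2.17-fold from 12.2 ± 1.06 CPM in NC to 26.6 ± 7.17 CPM in LPS. LINC02169 stood at 62, 61.8 and 59.9 CPM in NC and 5.89, 5.3 and 4.97 CPM in LPS, 11.4-fold lower, and LINC01140 fell 8.45-fold.

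Small nucleolar RNA host genes had 1 of 26 members higher and 15 lower (1 and 14 without NC 3 and LPS 1, median -0.52). GAS5 and SNHG5, named after their values were seen, fell 1.41-fold and 1.63-fold, and GAS5 stood at 314, 311 and 308 CPM in NC and 220.1, 231 and 210.2 CPM in LPS. Divergent transcripts (symbols ending in DT) had 13 of 165 higher and 59 lower (9 and 31, median -0.61), and antisense transcripts 46 of 368 and 118 (32 and 54, median -0.34). MALAT1, a nuclear RNA, stood at 295, 315 and 697 CPM in NC and 961, 558 and 520.0 CPM in LPS and did not pass (adjusted p = 0.117). It passed in 6 of 18 alternatives (adjusted p 1.94e-08 to 0.46 over all 18), as higher in LPS, among them without NC 3 and without NC 3 and LPS 1 together. It was highest within each group in the libraries with raised ribosomal RNA, NC 3 and LPS 1, and the part of this difference between libraries in other nuclear RNAs was not tested. NEAT1 did not pass either (-0.18 ± 0.16).

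**Figure D5:**
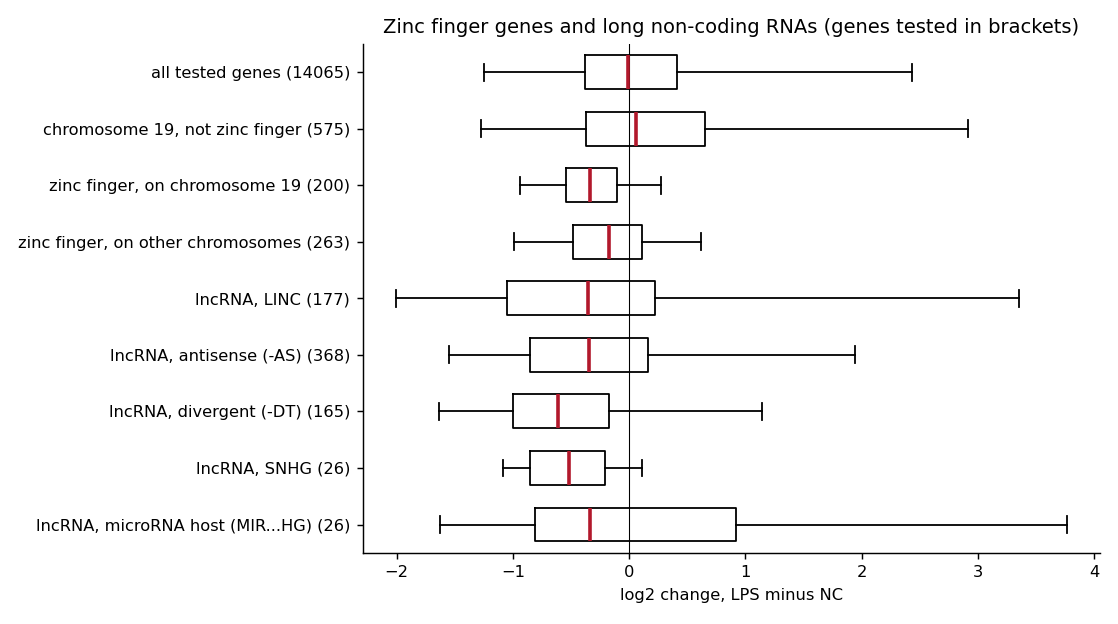
Distribution of log2 change in zinc finger and long non-coding RNA subsets. Boxes span the quartiles, red lines are medians and whiskers run from the 5th to the 95th percentile of the genes tested, whose number is in brackets. Chromosome 19 zinc finger genes and the SNHG and divergent RNAs are shifted left of 0, while other chromosome 19 genes are centred near 0.06.

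Outside the 32 lists, and leaving out the interleukin-1, chemokine, interferon and NF-kB target genes and a few others already well described, the largest rises by the same rule included genes of innate recognition and complement. TLR8, which senses single-stranded RNA, stood at 0.415, 0.365 and 0.97 CPM in NC and 104, 109 and 96.5 CPM in LPS, 182-fold higher. ADAMDEC1, a secreted metalloprotease of macrophages, had 1.04, 1.37 and 0.913 CPM in NC and 179.8, 191 and 170.4 CPM in LPS, 161-fold higher. SLAMF8, a macrophage receptor that carries both motif windows printed above, had 1.16, 0.959 and 1.48 CPM in NC and 175, 176 and 183 CPM in LPS, 149-fold higher (7.22 ± 0.10, adjusted p = 7.66e-13). CYTIP, which releases leukocyte integrins from adhesion, rose 112-fold and the protease inhibitor SERPINA1 84.9-fold. The complement component C3 and the receptor for its fragment C3a, C3AR1, rose 36.7-fold and 71.8-fold. C3 stood at 2.2, 2.06 and 2.45 CPM in NC and 75.5, 62.3 and 108 CPM in LPS, highest in LPS 3. Of the phagocyte oxidase, which makes superoxide, the membrane subunit CYBB stood at 29.4, 23.8 and 28.1 CPM in NC and 811, 812 and 733 CPM in LPS, 29-fold higher, and NCF1, which has pseudogenes that can take its reads, rose 61.5-fold. The small GTPase RAB13, the exchange factor RGL1 and the growth regulator SLFN5 rose 31.1-fold, 51-fold and 20.7-fold.

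The largest falls outside the lists included genes of immature granulocytes and monocytes. MS4A3, a membrane protein of granulocyte and monocyte progenitors, stood at 217, 201 and 206 CPM in NC and 9.28, 8.52 and 8.26 CPM in LPS, 24-fold lower (-4.58 ± 0.12, adjusted p = 7.82e-11). No LPS library came near the NC range. F13A1, the coagulation factor XIII subunit of monocytes, fell 11-fold, with 32.6, 34.7 and 32 CPM in NC and 2.9, 2.46 and 3.6 CPM in LPS, and ELANE, neutrophil elastase, 4.87-fold. The matrix protein THBS4, the cochaperone DNAJC5B and the neuronal regeneration gene NREP fell 5.89-fold, 5.74-fold and 5.24-fold. IRAG2, a membrane protein of lymphocytes also named LRMP, fell 5.73-fold from 122 ± 1.91 CPM in NC to 21.3 ± 2.57 CPM in LPS. The long non-coding RNAs GSEC and GIHCG fell 6.36-fold and 4.64-fold.

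On hg38, SGK1 lies on chromosome 6 at 134169246 to 134318112, IL7R on chromosome 5 at 35852695 to 35879603, PTAFR on chromosome 1 at 28147166 to 28193936 and NRP1 on chromosome 10 at 33177492 to 33336262, each a protein-coding gene in GENCODE 29. KYNU lies on chromosome 2 at 142877498 to 143055832, CAT on chromosome 11 at 34438925 to 34472062, MYB on chromosome 6 at 135181315 to 135219173 and SLC1A3 on chromosome 5 at 36606355 to 36688334. MIR3142HG, a long non-coding gene, lies on chromosome 5 at 160438594 to 160487426.

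Levels in the drug-treated groups are given for reference, as means of 3 libraries with no test. The values for CE rest on matching its columns as the remaining group. SGK1 stood at 500.0 CPM in CE and 431 CPM in CEL, IL7R at 296 CPM in CE and 258 CPM in CEL, PTAFR at 67.9 CPM in CE and 36.5 CPM in CEL and NRP1 at 413 CPM in CE and 314 CPM in CEL. CAT stood at 136 CPM in CE and 140.3 CPM in CEL, MYB at 176 CPM in CE and 102 CPM in CEL and MS4A3 at 0.809 CPM in CE and 0.407 CPM in CEL. A comparison of these groups with LPS would share the LPS libraries and is not made here.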

How the data were processed

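Libraries of 12 THP-1 samples were made from oligo-dT captured messenger RNA with PCR amplification, per the labels' protocols. The submitters' processing notes name the build hg38. No source used here names the aligner, counting tool, strand setting or annotation. The authors deposited estimated counts for 78932 genes, of which 29.3% of nonzero values are not whole within 0.005, together with TPM and FPKM computed by the authors. Columns were matched to samples by name, with 0 left over, and the CE columns by remaining as the last group.

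Counts were rounded, filtered with filterByExpr, scaled with TMM factors and fitted with edgeR 4.0.16 (R 4.3.3) over all 12 libraries in 4 groups of 3, which left 8 residual degrees of freedom. The contrast LPS minus NC was tested with the two-sided quasi-likelihood F-test and adjusted by Benjamini and Hochberg over all tested genes at 0.05. The standard error is the log2 change divided by the square root of F and is approximate. Alternatives used DESeq2 1.42.0, limma 3.58.1 on log2 of the deposited TPM or FPKM plus a pseudocount of 1 or 0.1, other scalings, no filter, a replicate block and each library left out. The scripts were tested on simulated data. Depth per library ran from 17737213 to 22622313 counts in NC and LPS.

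The 32 lists, the members and the rule for naming genes were chosen with earlier results of these data known. The rule names, in each list, up to 4 largest rises and 4 largest falls among changed genes with no overlap between groups and a mean log2 CPM of at least 3 (1 for long non-coding RNAs), and the most abundant member that did not pass. It adds 12 rises and 12 falls outside the lists. The text gives most of these, and says so where a gene was chosen after its values were seen. The values of 1 list and of some genes are not reported here. Lists were described by counts and medians, with 1 entry per symbol and no test. Gene positions and classes are from GENCODE 29, and promoter windows from RefSeq. In the labels, batch and replicate carry 1 shared number.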

Additional observations from a re-analysis of the deposited data

How the results depend on the processing

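Of 276 named genes that changed, 212 kept their direction and their call in all 18 alternatives, and 241 did so in all but those on TPM. The number of genes higher, 3152, was 2604 to 3429 in the count-based alternatives with all 12 libraries and on log2(FPKM + 1), 3851 in a fit of the 6 NC and LPS libraries alone, and 2070 on log2(TPM + 1). The number lower, 3306, was 772 with limma on log2(TPM + 0.1), 893 with limma on log2(TPM + 1), and 1956 with no low-count filter, where 38635 genes were tested. On the TPM scale the medians of all genes moved by 0.14 to 0.15, and NC 3 and LPS 1 held 18.2% and 15.5% of their TPM in ribosomal and small RNA rows. The cause of the loss was not tested. Upper quartile scaling gave 2604 higher and 4387 lower, 37.2% of calls higher against 48.8%. Leaving out each library in turn gave 2612 to 3001 higher and 2729 to 2916 lower. Leaving out NC 3 and LPS 1 together, or the rows of ribosomal RNA, were alternatives chosen after seeing the data, and gave 2236 and 2207, and 3137 and 3309. The small falls of the bHLH factors ARNT and TCF12 reversed on TPM, to 0.0825 and 0.0314 with a pseudocount of 0.1 and to 0.0804 and 0.0307 with 1. Small falls named in the report, such as LEPR, ABCC5, ABCD3, NNT, OAZ1 and KDM4A, lost their call on TPM. Those of HOXA10, CEBPG, ATF4, PPARA, SDHA and AFMID lost it also with no low-count filter. Same-numbered libraries deviated together (r over 0.1) in 6 of 18 pairs and in 1 of 3 pairs of NC with LPS, so the numbers were not taken to pair samples. A replicate block gave 2977 higher and 3015 lower, and 9 named genes lost their call under it. Depth limits genes with few counts in NC, whose fitted changes depend on the prior count.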

Other observations

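Pseudogenes, a class not described above, had 31 of 432 tested members higher and 81 lower, with a median log2 change of -0.22, beside a median of 0.02 over 11374 protein-coding genes. The reads of many pseudogenes can also match their parent genes, so these values are uncertain. Genes whose identifier is not in GENCODE 29 had 124 of 811 higher and 169 lower, with a median of -0.23.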
